A study of Caenorhabditis elegans with 10 samples.

Results

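Small nucleolar RNAs (snoRNAs) were described in germline tumours of C. elegans with an active or an absent GLP-1 Notch receptor. A snoRNA gene was included if the deposited gene table gives its biotype as snoRNA and if it reached at least 1 CPM (reads per 1 M reads assigned to genes) in at least 5 of the 10 libraries, which 128 of the 345 snoRNA genes in the table did (37.1%). The table holds 46536 genes in all, and 6833 of them met the same level rule. Levels alone chose the 128 genes, so that the members were chosen by their CPM in these libraries and their being detected is not a finding. The difference between the receptor states was not used to choose them.

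All animals were adults of the Bristol strain on day 1 of adulthood, raised at 25 °C for 48 h from larvae synchronised by bleaching, and their germlines were cut out by hand. The mutations gld-2(q497) gld-1(q485), with which germ cells keep dividing with or without Notch signalling, were present in every animal. The 5 GLP-1 ON libraries came from animals with the gain-of-function receptor allele glp-1(ar202), and the 5 GLP-1 OFF libraries from animals with the null allele glp-1(q175). Total RNA was depleted of ribosomal RNA before library preparation. In this bulk RNA, fewer cells of a type and less RNA per cell cannot be told apart, and what limits the tumours as a model is that both states share the same gld-2 gld-1 mutant background, with no wild-type germline among the groups.

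SnoRNAs are short nucleolar RNAs that guide the chemical modification of ribosomal and spliceosomal RNAs by base pairing with them. Box C/D snoRNAs direct methylation of the ribose by fibrillarin, and box H/ACA snoRNAs direct the conversion of uridine to pseudouridine by dyskerin, each within a small set of core proteins. Many animal snoRNAs lie in introns of host genes and are trimmed by exonucleases from the excised intron, while others have promoters of their own. Growing and dividing cells, such as germ cells, make many ribosomes and therefore use this machinery heavily. Which of the 128 genes are of the C/D or the H/ACA class was not analysed here, and similarity of sequence between snoRNA copies was not examined.

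The libraries held 17.5 to 38.5 M reads in genes, so that 1 read was worth 0.0260 to 0.0571 CPM and a snoRNA at 1 CPM rests on few reads. Transcripts of glp-1 lay between 206 and 274 CPM in ON and between 69.7 and 101 CPM in OFF. All 10 germ cell markers examined reached 1 CPM in at least 5 libraries, with summed levels of 1867 to 2671 CPM in ON against 1733 to 2523 CPM in OFF. Of the markers of other tissues, the summed level stayed between 9.34 and 23.3 CPM for body wall muscle (4 of 4 markers detected), between 1.18 and 9.12 CPM for intestine (1 of 5), between 1.30 and 2.97 CPM for hypodermis (1 of 4), between 0.0364 and 2.91 CPM for pharynx (0 of 3), between 21.4 and 33.3 CPM for neurons (1 of 4) and between 23.1 and 41.2 CPM for somatic gonad (3 of 6). Reads in rRNA genes that escaped depletion made up 44.5 ± 3.65% of an ON library and 44.0 ± 5.10% of an OFF library (SD, n = 5 each). This share was highest in OFF replicate 1 (50.7%), ON replicate 2 (49.6%) and OFF replicate 5 (48.1%), and at most 46.5% in the other 7 libraries.

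As a class, the snoRNAs were about equally abundant in both receptor states. Their summed level was 20865, 23576, 21358, 20740 and 20968 CPM in ON replicates 1 to 5, and 27632, 20509, 21252, 20659 and 24300 CPM in OFF replicates 1 to 5. The groups overlapped throughout, and the means of 21501 ± 1183 CPM in ON against 22870 ± 3074 CPM in OFF (SD, n = 5) differed by less than the spread of the OFF libraries, with an OFF to ON ratio of 1.06. In other terms the snoRNAs made up 2.15 ± 0.118% of the reads of an ON library and 2.29 ± 0.307% of those of an OFF library, or 3.91 ± 0.465% and 4.17 ± 0.968% of the reads outside rRNA genes. No test was made of this sum.

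The spread of the sum moved with the rRNA share. The 3 libraries of highest rRNA share held the 3 highest sums, at 23576 CPM or more, while the other 7 lay between 20509 and 21358 CPM. Without those 3 libraries the mean was 20983 CPM in ON against 20807 CPM in OFF, a choice made after seeing the data. The part of depletion in this was not tested.

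The sums of 2 other classes of short RNA lay apart between the groups. Genes of the small nuclear RNAs, the RNA parts of the spliceosome, summed to 1289 ± 151 CPM in ON (range 1194 to 1546) and 1954 ± 406 CPM in OFF (range 1609 to 2620), without overlap. The tRNA genes summed to 46.8 ± 5.36 CPM in ON (range 41.4 to 53.4) and 74.6 ± 17.1 CPM in OFF (range 57.1 to 95.3), also without overlap. These sums were not tested.

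**Figure D1:**
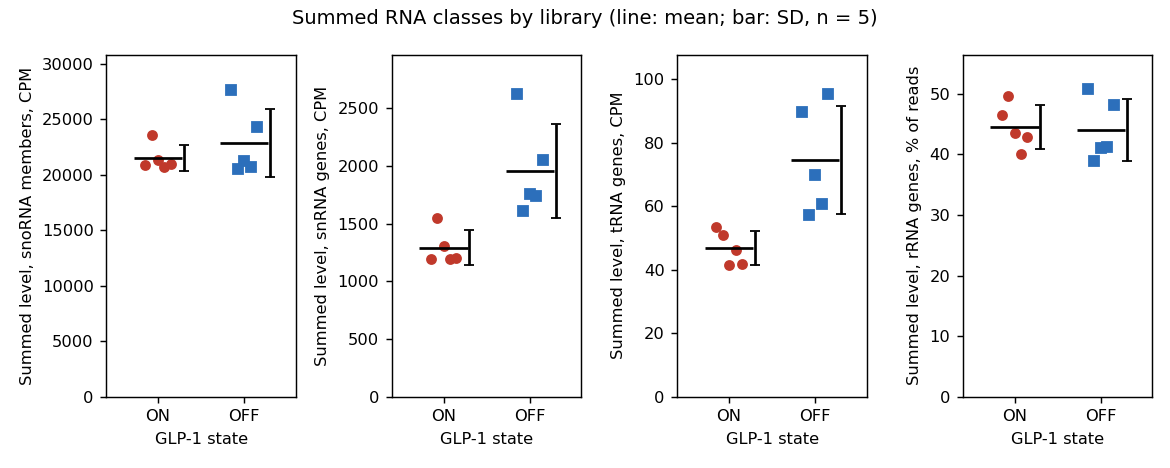
Summed level per library of the 128 snoRNA genes, all snRNA genes and all tRNA genes (CPM), and the share of reads in rRNA genes (percent), in GLP-1 ON (circles) and OFF (squares); lines are means and bars SD over 5 libraries. The snoRNA sums overlap between groups (20740 to 23576 CPM in ON, 20509 to 27632 CPM in OFF), while the snRNA and tRNA sums do not.

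A few snoRNAs made up most of the class. The mean level over the 10 libraries ran from 1.01 to 2180 CPM with a median of 37.96 CPM, and 6 genes reached a mean of 1000 CPM, 39 reached 100 CPM and 91 reached 10 CPM. The gene with most reads held 9.82% of the summed CPM, the top 3 held 24.8% and the top 10 held 54.7%. The median coefficient of variation between replicates was 14.8% in ON and 18.4% in OFF.

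The gene of highest mean CPM was ZK185.9 (chromosome IV, 4538702 to 4538916, minus strand, over the gene ZK185.2 on the opposite strand). It was at 1861, 2015, 2070, 2198 and 1811 CPM in ON replicates 1 to 5 and at 2718, 2237, 2104, 2126 and 2655 CPM in OFF replicates 1 to 5. Both high values in OFF were from libraries of high rRNA share, and the groups overlapped. The means were 1991 ± 157 and 2368 ± 296 CPM (SD, n = 5), a log2 difference of -0.24 with an adjusted p of 0.116 (limma with Benjamini-Hochberg adjustment).

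Y38F2AR.14 (chromosome IV, 2408508 to 2408635, minus strand) lies in an intron of the gene Y38F2AR.12. It was at 1774, 2084, 1940, 1620 and 1747 CPM in ON and at 2390, 2022, 2112, 1909 and 2213 CPM in OFF, again with overlap (log2 difference -0.22, limma adjusted p = 0.149). Per length it was the most abundant snoRNA, at 15478 CPM per kb, ahead of Y75B12B.12 at 11296 and ZK185.9 at 10137 CPM per kb.

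The next 8 genes by mean CPM were Y75B12B.12, ZK643.9, Y24D9A.9 in an intron of the ribosomal protein gene rpl-7A, T24H7.6, Y67A10A.14, F17C11.15 in an intron of the elongation factor gene eef-1G, Y74C9A.6 and W08G11.6. Examples of their levels are T24H7.6, which averaged 1015 ± 65.2 CPM in ON against 1014 ± 117 in OFF, and Y67A10A.14, which averaged 998 ± 98.5 and 831 ± 121 CPM (SD, n = 5). None of the 10 was called by limma, where 19.1% of all tested genes were. At an unadjusted limma p under 0.05 there were 4, and the smallest limma adjusted p was 0.101, for Y75B12B.12 and Y67A10A.14. On reads recovered from the CPM, edgeR and DESeq2 called 0 of the 10. Leaving out 1 library brought 3 of them past the threshold: Y75B12B.12 without ON replicate 2 (limma adjusted p = 0.0424), and Y67A10A.14 (0.0217) and W08G11.6 (0.0329) without OFF replicate 1. Compared per length over all 10 libraries, Y38F2AR.14 stood 1.95 SD above Y75B12B.12, whereas Y75B12B.12, ZK185.9 and ZK643.9 (10052 CPM per kb) differed from each other by less than 1 SD. T24H7.6 followed at 7301 CPM per kb, and the steps from Y24D9A.9 (5606) to Y67A10A.14 (5256), W08G11.6 (4756) and Y74C9A.6 (4533) were again below 1 SD. F17C11.15 was lowest of the 10, at 3556 CPM per kb. Outside the top 10, the other 118 genes summed to 9752 ± 626 CPM in ON against 10331 ± 1486 CPM in OFF.

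At the lower edge of the class, 123 of the 128 genes reached 1 CPM in all 10 libraries and 5 did so in only 5 to 9 of them. F58D5.12, with a mean of 1.01 CPM, and M106.6, with a mean of 1.06 CPM, were just inside the rule. F09G2.14, at a mean of 1.03 CPM with 4 libraries above the level, and Y62F5A.11, at 0.910 CPM with 4, were just outside. F56A12.6 and M03D4.78 met the rule through their 5 ON libraries, with only 1 and 2 OFF libraries at 1 CPM, so their inclusion rests on their ON level. M106.6 and F58D5.12 reached 1 CPM in 1 ON and 4 OFF libraries each, so their inclusion rests mainly on their OFF level. Of the 217 snoRNA genes left out, 94 had 0 reads in every library, 211 were below 1 CPM in every library, and together they summed to 19.9 to 27.1 CPM a library.

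Of the 128 snoRNAs, 30 were called (limma on log2(CPM + 1), adjusted p under 0.05 over all tested genes), where 19.1% of the 6833 tested genes were. They were 10 called higher in ON and 20 called lower, and 98 were not called. The 10 include F56A12.6 and M03D4.78, which were included through their ON libraries. The 20 include M106.6, which was included mainly through its OFF libraries, with 4 of them and 1 ON library at 1 CPM. Called higher were 7.81% of the snoRNAs against 6.7% of the tested genes, and called lower were 15.6% against 12.4%. The shares of the class were thus near those of all genes. With TMM scaling, which sets the bulk of genes at no change, 6.25% of the snoRNAs were called higher and 10.16% lower, against 17.7% and 17.3% of all tested genes. Without the 3 libraries of highest rRNA share, 15.6% were called higher and 16.4% lower, against 5.97% and 21.3%.

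The ON and OFF libraries did not overlap for 18 of the 128 snoRNAs, against 14.9% of all tested genes. The median log2 difference (ON minus OFF) was -0.07 over the snoRNAs and -0.05 over all tested genes, and 60.2% and 59.5% had a negative difference. Few differences were large: 2 of the 10 called higher and 1 of the 20 called lower passed 1 on the log2 scale. Called genes had mean levels from 1.06 to 452 CPM.

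**Figure D2:**
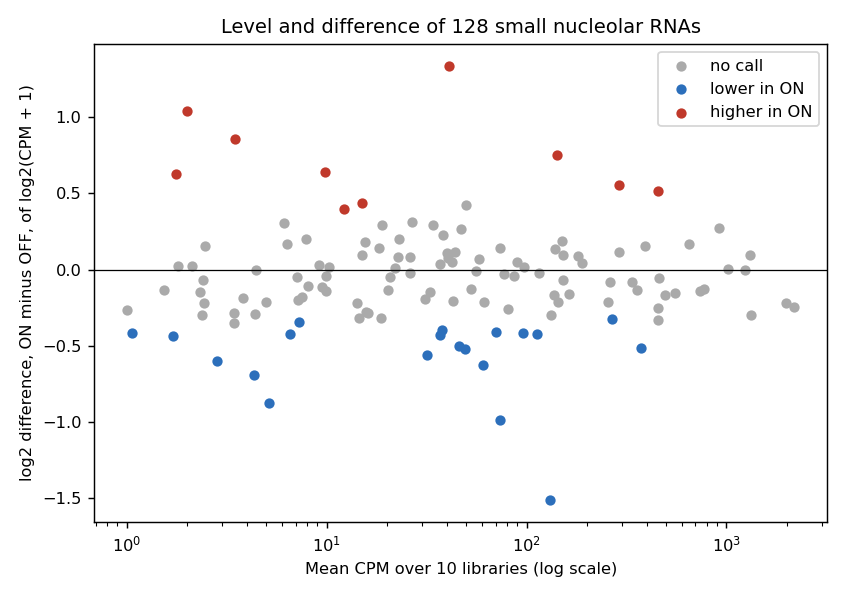
Mean level over 10 libraries (CPM, log axis) against the log2 difference of log2(CPM + 1), ON minus OFF, for each of the 128 snoRNA genes; red, called higher in ON (10); blue, called lower (20); grey, no call (98). Called genes spread over levels from 1.06 to 452 CPM, and the 10 most abundant genes are all grey.

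Among snoRNAs higher in ON, C17H12.36 (chromosome IV, 6792974 to 6793200, plus strand, 227 bases, overlapping no other annotated gene) had the largest difference on the log2(CPM + 1) scale. It was at 53.6, 60.1, 64.2, 62.4 and 55.6 CPM in ON replicates 1 to 5 and at 22.5, 20.3, 22.6, 21.1 and 27.9 CPM in OFF replicates 1 to 5. Every ON library was above every OFF library, the closest values being 53.6 and 27.9 CPM. The ON mean of 59.2 ± 4.49 CPM was 2.59 times the OFF mean of 22.9 ± 2.96 CPM (SD, n = 5; log2 difference 1.34, SE 0.10, limma adjusted p = 5.05e-09). The exact two-sided permutation test over all assignments of the libraries to groups of 5 gave p = 0.00794, the smallest this design allows.

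F56A12.6 (chromosome V, 14362376 to 14362451, plus strand) lies at a level near the detection rule, which it met through its ON libraries. It was at 3.06, 2.90, 3.13, 2.80 and 3.27 CPM in ON and at 1.39, 0.999, 0.805, 0.887 and 0.784 CPM in OFF, which rests on 17 to 126 reads a library. The ratio of means, 3.12, was above that of C17H12.36, while the log2 difference was 1.04, since the pseudocount lowers it at this level. As the choice of this gene depended on its ON level, its difference is given as a description, with no test.

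K09E9.5 (chromosome X, 15619491 to 15619621, plus strand) was at 160, 205, 165, 161 and 199 CPM in ON and at 141, 96.9, 94.0, 92.1 and 107 CPM in OFF. OFF replicate 1 was the highest of its group, yet all OFF libraries stayed below all ON libraries. The ratio of means was 1.68 (log2 difference 0.75, SE 0.12, limma adjusted p = 1.1e-04).

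F43A11.8 (chromosome V, 11585191 to 11585361, minus strand) and T08B6.64 (chromosome IV, 4880738 to 4880850, minus strand) had the highest CPM of the snoRNAs called higher. F43A11.8 was at 292, 354, 366, 342 and 377 CPM in ON and at 266, 218, 222, 216 and 255 CPM in OFF, without overlap (ratio 1.47, limma adjusted p = 4.78e-04). T08B6.64 was at 470, 600, 520, 514 and 552 CPM in ON and at 472, 329, 362, 335 and 370 CPM in OFF (ratio 1.42, limma adjusted p = 0.00191). Its groups overlapped through OFF replicate 1, which was just above ON replicate 1.

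The other 5 called higher were T07D4.7, F19H8.6, M03D4.78, C07H6.10 and Y59E1B.14, with log2 differences from 0.40 to 0.86 and means between 1.76 and 14.98 CPM. T07D4.7 did not overlap between groups, at 4.76 ± 0.674 CPM in ON against 2.20 ± 0.516 CPM in OFF (SD over 5 libraries each; limma adjusted p = 2.86e-05). F19H8.6 and Y59E1B.14 overlap an exon of another annotated gene on the same strand, so their reads and those of that gene may not be separable. C07H6.10 (limma adjusted p = 0.0451) and Y59E1B.14 (0.0259) were the least stable calls, lost under 13 and 11 of the 22 alternative settings.

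Among snoRNAs lower in ON, Y71F9AM.7 (chromosome I, 2935785 to 2935920, plus strand, 136 bases) had the largest difference on the same scale. It lies in an intron of cogc-3, a subunit gene of the oligomeric Golgi complex. It was at 78.5, 81.5, 59.7, 61.6 and 55.6 CPM in ON replicates 1 to 5 and at 263, 148, 182, 174.9 and 212 CPM in OFF replicates 1 to 5. All ON libraries were below all OFF libraries, and OFF replicate 1 was the highest. The OFF mean of 196 ± 43.9 CPM was 2.91 times the ON mean (SD, n = 5; log2 difference -1.51, SE 0.14, limma adjusted p = 9.5e-08).

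W03B1.17 (chromosome IV, 4347632 to 4347831, plus strand, 200 bases, overlapping no other annotated gene) was at 53.98, 51.1, 47.6, 47.6 and 43.7 CPM in ON and at 112.15, 88.4, 90.6, 91.4 and 107 CPM in OFF. The groups did not overlap, and the OFF mean was 2.01 times the ON mean (log2 difference -0.99, limma adjusted p = 3.18e-07). Y23H5B.10 (chromosome I, 2514168 to 2514311, minus strand, over the gene Y23H5B.13 on the opposite strand) was at 3.86, 3.697, 2.32, 3.999 and 2.96 CPM in ON and at 8.22, 5.56, 6.71, 6.34 and 8.07 CPM in OFF. Its groups did not overlap either (log2 difference -0.87, limma adjusted p = 3.67e-05).

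Y43F8C.22 (chromosome V, 19643050 to 19643187, minus strand, in an intron of Y43F8C.7) had the highest CPM of the snoRNAs called lower. It was at 343, 329, 283, 293 and 283 CPM in ON and at 534, 345, 422, 413 and 498 CPM in OFF. The highest ON and the lowest OFF library nearly met, at 343 and 345 CPM, but did not cross (ratio of OFF to ON 1.44, limma adjusted p = 0.0029).

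The other 6 of the 10 largest decreases had log2 differences from -0.70 to -0.50. They were T23B12.13 in an intron of the mitochondrial ribosomal protein gene mrps-2, F22D6.16 over an exon of prpf-4, C17D12.8 over pcmd-1 on the opposite strand, Y46G5A.40 in the phosphatidylinositol synthase gene pisy-1, ZK632.18 in the calnexin gene cnx-1 and F56C9.12 in the protein phosphatase gene gsp-2. The groups of 5 of the 6 did not overlap, the exception being Y46G5A.40, whose OFF replicate 2 (27.9 CPM) was below ON replicates 1 and 2 (29.9 and 28.51 CPM).

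The last 10 snoRNAs called lower had log2 differences from -0.43 to -0.33, and 7 of them lie in introns. They include M106.6 in the condensin gene mix-1, JC8.15 in tag-115, ZK546.18 in the Mediator subunit gene mdt-4 and the pair K07C11.11 and K07C11.12 in the Aurora kinase gene air-1. As M106.6 met the level rule mainly through its OFF libraries, its call is not counted as support. The weakest was F59C6.15 (limma adjusted p = 0.0484).

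**Figure D3:**
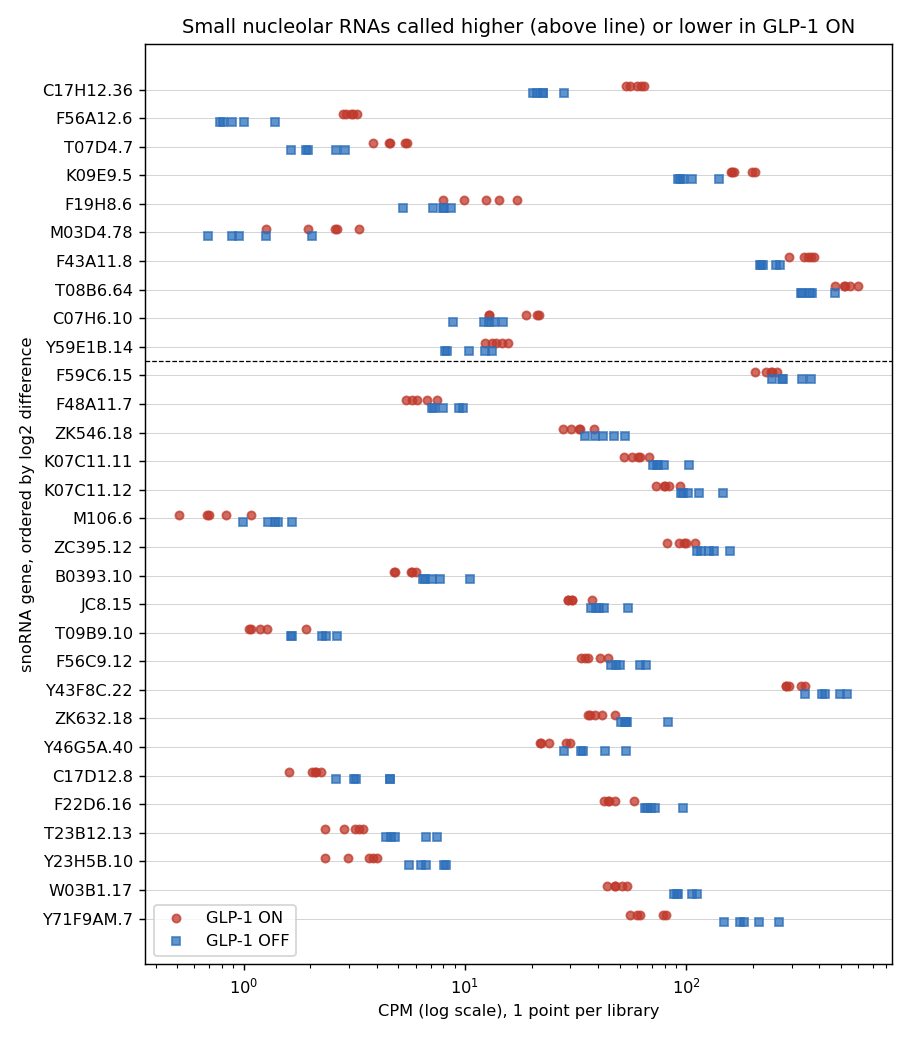
Level in every library (CPM, log axis) of the 30 called snoRNA genes, ordered by log2 difference, with those higher in ON above the dashed line and those lower in ON below it; circles, ON; squares, OFF. C17H12.36 and F56A12.6 at the top and W03B1.17 and Y71F9AM.7 at the bottom have separate groups, while the genes next to the dashed line, Y59E1B.14 and F59C6.15, overlap. F56A12.6 was included through its ON libraries.

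The sample numbers in the labels fall into 3 runs, 56 to 58, 85 to 88 and 127 to 130, each with libraries of both groups, although the labels do not call them batches. ON replicate 1 was the only ON library in 56 to 58, and ON replicate 2 the only one in 85 to 88. OFF replicate 5 was the only OFF library in 127 to 130. Both ON replicate 2 and OFF replicate 5 were of high rRNA share. The calls came from these same libraries, so the signs within runs are a description and not support. All 20 snoRNAs called lower had a negative difference within each run, and 8 of the 10 called higher had a positive difference within each. The exceptions were C07H6.10 (-0.10 within 56 to 58) and Y59E1B.14 (-0.02 within 127 to 130). The 8 include F56A12.6 and M03D4.78, and the 20 include M106.6, whose inclusion rests on their level in 1 group. For C17H12.36 the log2 differences within the runs were 1.29, 1.42 and 1.09, and for Y71F9AM.7 they were -1.32, -1.12 and -1.83. With the runs as a block in the fit, 8 snoRNAs were called higher and 14 lower, all among the 10 and 20.

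The snoRNAs were also described by their place in the annotation. Of the 69 snoRNAs in an intron of a gene on the same strand, 1 was called higher and 13 lower, with a median log2 difference of -0.11, where 6.7% of all tested genes were called higher and 12.4% lower. Of the 31 that overlap no other gene, 7 were called higher and 3 lower, with a median of 0.09. The 7 include F56A12.6 and M03D4.78, which were included through their ON libraries. The 13 include M106.6, which was included mainly through its OFF libraries. The 17 snoRNAs over a gene on the opposite strand held 0 called higher (2 at an unadjusted p under 0.05, and 0 by edgeR or DESeq2) and 3 lower, and the 11 that overlap an exon on the same strand held 2 and 1.

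These counts are descriptions that include members chosen through their ON or OFF level, and no test of the difference between places was made. With TMM scaling, where 17.7% of all tested genes were called higher and 17.3% lower, the intronic snoRNAs held 0 called higher and 7 lower and those without overlap 7 and 2. Without the 3 libraries of highest rRNA share, where the shares over all genes were 5.97% and 21.3%, the counts were 5 and 14 for the intronic and 11 and 2 for those without overlap. Where a snoRNA shares its place with another gene, reads of an unspliced host transcript, or of an opposite gene if counting ignored the strand, cannot be told apart from its own.

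The share of genes that met the level rule is given by place and chromosome as a description. Of all annotated snoRNA genes, 69 of 139 intronic ones met the level rule, 31 of 108 without overlap, 17 of 42 over an opposite gene and 11 of 56 over an exon. Of the 56 over an exon, 30 had 0 reads in every library, as had 21 of the intronic genes, 26 of those without overlap and 17 of those over an opposite gene. On the X chromosome 5 of 33 snoRNA genes met the rule (15.2%). Each autosome had 53 to 74 snoRNA genes, of which 22 to 26 met it (35.1% to 49.1%). Of all 46536 genes 6833 met the rule. The share of all genes on each chromosome was not computed, so a low share on X cannot be read as particular to snoRNAs.

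Detected snoRNAs fell mainly into a short and a longer class of annotated length. The level rule was met by 35 of 56 genes of 80 bases or fewer (62.5%), 8 of 56 of 81 to 110 bases (14.3%), 56 of 109 of 111 to 140 bases (51.4%) and 29 of 124 longer ones (23.4%). The 40 members under 100 bases carried little of the summed CPM, with 1253 ± 218 CPM in ON against 1156 ± 152 CPM in OFF. The 88 longer ones carried 20249 ± 1154 and 21714 ± 2986 CPM (SD, n = 5). How well the library preparation kept short RNAs was not examined, so these sums are of reads and not of molecules. Per library the share of the sum from members under 100 bases was 4.66, 5.44, 6.89, 5.27 and 6.89% in ON and 4.497, 5.79, 5.39, 4.37 and 5.35% in OFF. The highest 2 shares were from ON replicates 3 and 5, and the groups overlapped.

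Of the 40 short members 3 were called higher and 2 lower, with a median log2 difference of 0.04. Of the 88 longer members 7 were called higher and 18 lower, with a median of -0.14, beside the 6.7% and 12.4% of all tested genes. The short called members include F56A12.6, included through its ON libraries, and M106.6, included mainly through its OFF libraries. The longer ones called higher include M03D4.78, included through its ON libraries. The groups' order by length stood beside that by place and was not tested apart from it.

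**Figure D4:**
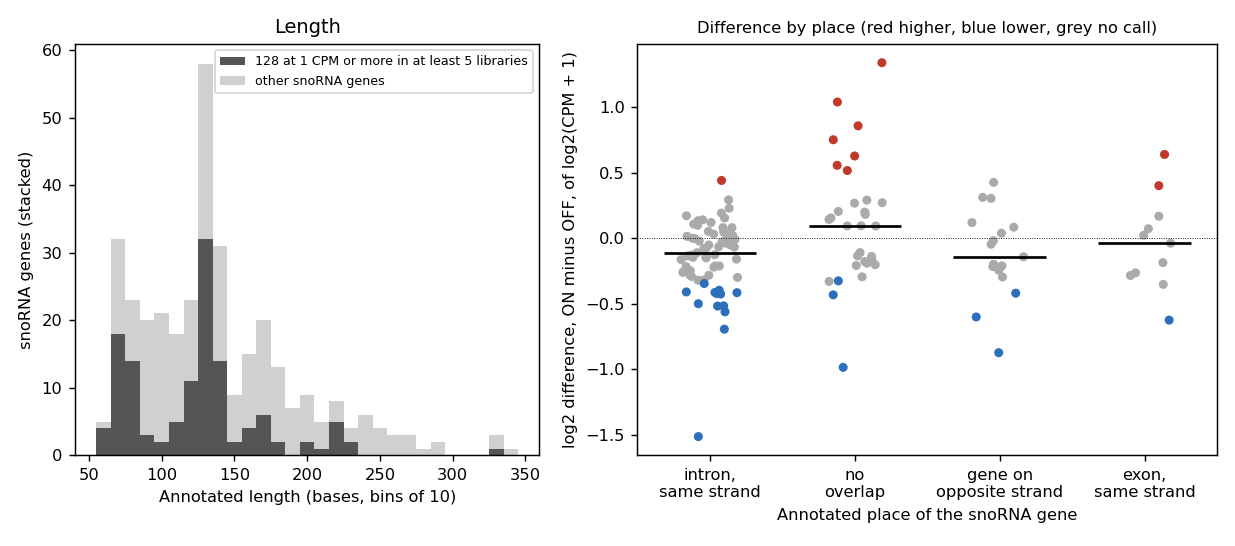
Left, annotated length in bases of the 345 snoRNA genes in bins of 10, with the 128 above the level rule in dark grey and the others stacked in light grey. Right, log2 difference (ON minus OFF) of each of the 128 by annotated place, with the median as a line (-0.11 for intronic, 0.09 without overlap, -0.14 over an opposite gene, -0.04 over an exon); red and blue points were called higher and lower.

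The intronic snoRNAs were set beside their host genes. The 69 intronic snoRNAs lie in 55 host genes, and for 64 of them the host was itself tested. Counted per snoRNA, the host was called lower for 2 of the 13 snoRNAs called lower and not called for 11. The 11 include M106.6 in mix-1, which was included mainly through its OFF libraries. For the 50 uncalled snoRNAs, the host was called higher for 9 and lower for 4. A host with several snoRNAs is counted for each of them, as air-1 with 2, rpl-15 with 2 and K07C5.4 with 4. Of all tested genes, 19.1% were called in either direction, a share per gene and so only a rough measure beside these counts. The sign of the difference was shared by 32 of the 64 pairs, and across the pairs Pearson's r was 0.23, or 0.12 without Y71F9AM.7, a description over genes that share libraries and, in part, hosts.

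The host cogc-3 of the most lowered snoRNA was at 63.1 ± 7.49 CPM in ON against 89.6 ± 13.3 CPM in OFF (SD, n = 5; log2 difference -0.49, limma adjusted p = 0.00366). It was called lower too, with a smaller log2 difference than its snoRNA (-1.51). Both snoRNAs in air-1 were lower by 0.41 on the log2 scale, while air-1 was at 78.4 ± 6.21 and 80.4 ± 8.40 CPM (log2 difference -0.03, limma adjusted p = 0.858). The host cgh-1, a germline RNA helicase gene, was lower in ON, at 195 ± 40.4 against 305 ± 56.6 CPM (log2 difference -0.65, limma adjusted p = 0.00248), while its snoRNA C07H6.10 was called higher.

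In other pairs the host changed and the snoRNA was not called. The peroxidasin gene pxn-1 was at 24.3 ± 2.59 CPM in ON against 9.78 ± 1.33 CPM in OFF (log2 difference 1.24, limma adjusted p = 3.33e-08), and its snoRNA ZK994.7 was at 22.3 ± 6.87 and 21.6 ± 3.72 CPM (0.01). The kinase gene mnk-1 had a log2 difference of -0.62 with -0.03 for its snoRNA R166.7, and the chaperone gene hsp-1 had 0.55 with 0.04 for F26D10.24. T24H7.6, among the 10 most abundant snoRNAs, had a log2 difference of 0.01 and its host T24H7.2 one of -0.45 (limma adjusted p = 0.00547).

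**Figure D5:**
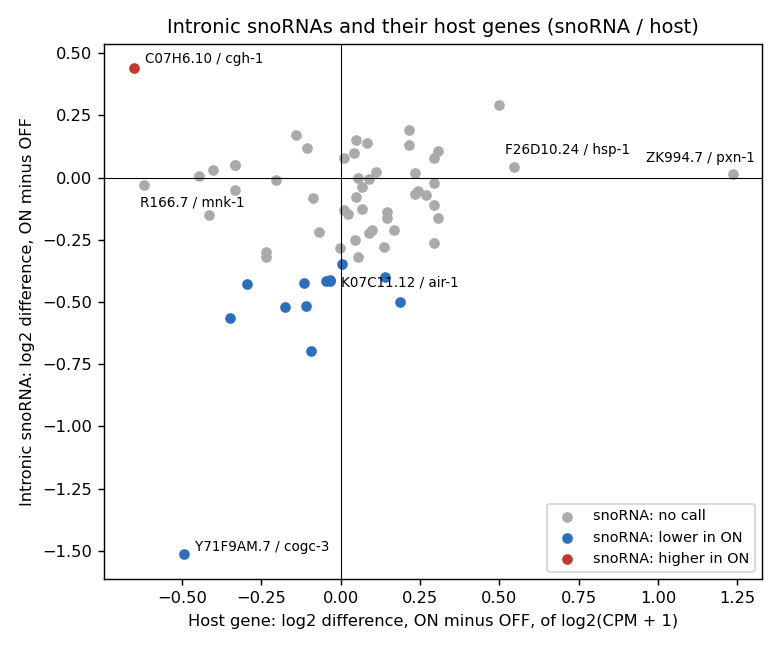
Log2 difference (ON minus OFF) of the host gene against that of the snoRNA in its intron, for the 64 pairs with a tested host; colour gives the call of the snoRNA. Y71F9AM.7 and cogc-3 lie low on both axes, while pxn-1 (1.24) and mnk-1 (-0.62) lie far from 0 with snoRNAs at 0.01 and -0.03.

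Ribosomal protein genes, a common place for snoRNAs, hosted 15 of the 69 in 11 genes, counting only hosts with an rpl or rps name. Ribosomal protein genes under other names were not counted. None of the 15 was called by limma, edgeR or DESeq2, where limma called 19.1% of all tested genes. At an unadjusted limma p under 0.05 there was 1, and the log2 differences ran from -0.32 to 0.19. Of the hosts, rpl-15 was called higher (log2 difference 0.31, limma adjusted p = 0.0293). In 11 hosts with several snoRNAs, holding 25 in all, differences within a host spanned at most 0.34 on the log2 scale. The widest span was in K07C5.4 (nol-56), which encodes a core C/D protein and hosts 4 snoRNAs with log2 differences from -0.26 to 0.08, while the gene itself had 0.29 (limma adjusted p = 0.0494). Per length, 46 of the 69 intronic snoRNAs were above the spliced level of their host and 23 below it, with a median ratio of 3, and Y38F2AR.14 was 7135 times its host (2.17 CPM per kb).

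Of the 4 core box C/D proteins, 3 were called higher in ON, where 6.7% of all tested genes were, and 4 with TMM scaling, where 17.7% were. nol-5 (nol-58) was at 795 ± 70.5 CPM in ON against 611 ± 82.0 CPM in OFF (SD, n = 5; log2 difference 0.38, limma adjusted p = 0.0157). M28.5 (snu-13), whose product binds the C/D motif, was at 410 ± 17.2 and 321 ± 26.1 CPM without overlap (log2 difference 0.35, limma adjusted p = 0.00891), and K07C5.4 was at 728 ± 64.1 and 594 ± 63.6 CPM. The methylase gene fib-1 was at 215 ± 32.2 and 188 ± 30.1 CPM, a log2 difference of 0.20 that was not called (limma adjusted p = 0.300), though it was with TMM scaling (adjusted p = 0.0441).

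Of the box H/ACA proteins none of the 3 tested was called (0 by limma on CPM, also at an unadjusted p under 0.05), while TMM scaling, edgeR and DESeq2 each called 1 higher. The pseudouridine synthase gene K01G5.5 (dkc-1) was at 427 ± 27.8 CPM in ON against 413 ± 51.8 CPM in OFF (log2 difference 0.05), Y48A6B.3, a homolog of NHP2, had a log2 difference of 0.14, and Y66H1A.4 (garr-1) one of -0.01. The fourth gene, nola-3, is listed at 0 in every library.

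Of the other factors around snoRNAs and ribosome assembly, few were called on the CPM scale. The 5 assembly and nucleolar factors held 0 limma calls, with K07H8.10 (nucl-1), a nucleolin gene, at 1024 ± 163 CPM in ON against 834 ± 167.1 CPM in OFF (log2 difference 0.31, limma adjusted p = 0.152). Of 6 RNA polymerase I genes only rpac-19 was called, higher by 0.30 on the log2 scale (limma adjusted p = 0.0454). The 15 tested ribosome biogenesis factors and the 12 tested exosome and exonuclease genes, which trim snoRNA ends, held 0 limma calls, among them nog-1 (log2 difference 0.24) and mtr-4 (-0.08). At an unadjusted limma p under 0.05 the higher ones were 1 assembly factor, 3 biogenesis factors and 0 exosome genes. With TMM scaling 2 assembly factors, 2 polymerase genes, 9 biogenesis factors and 2 exosome genes were called higher and 0 genes of these lists lower, where 17.7% of all tested genes were called higher and 17.3% lower. On recovered reads edgeR called 2, 2, 7 and 3 of them higher and DESeq2 2, 2, 9 and 4, so these calls depend on the scaling.

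Outside the class, the genes whose log2(CPM + 1) followed the log2 summed snoRNA level most closely over the 10 libraries were the snRNA gene F11A5.14 (Pearson's r 0.95), rpr-1, the RNA of RNase P (0.90), ceh-23 (0.88), mir-353 (0.85) and the rRNA gene rrn-2.1 (0.83). These are a ranking over libraries of unlike rRNA share, given as a description. rpr-1 was at 5466 ± 283 CPM in ON against 5956 ± 707 CPM in OFF (SD, n = 5), and rrn-2.1 makes up most of the rRNA reads.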

How the data were processed

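The authors deposited 1 table of CPM for all genes and 10 libraries, used here as a signal scaled to 1 M reads in genes. The submitters' processing notes name STAR 2.0.4b, featureCounts 1.4.5 of Subread, limma and edgeR. Not given in the sources used here are the build, the annotation, whether counting used the strand, and how multi-mapping or overlapping reads were treated. Of 46998 rows, 462 repeated a gene and were dropped, leaving each library 0.137% to 0.196% short of its total. Dividing by the smallest value above 0 gave whole reads for 100% of values within 0.01 read. No interval was computed, and counting error is only part of the replicate spread.

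From the deposited values, log2(CPM + 1) was tested with limma 3.58.1 (trend, R 4.3.3) in genes reaching 1 CPM in 5 or more libraries, 5 ON against 5 OFF, with Benjamini-Hochberg adjustment over 6833 genes. The design text calls the libraries biological replicates. Log2 differences are on the log2(CPM + 1) scale and understate changes of low genes. Places and coordinates are those of Ensembl's WBcel235 annotation, matched by gene identifier for 46363 genes, and say nothing of the authors' build. A host is a gene with the snoRNA in an intron on the same strand.

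The snoRNAs named are the 10 of highest mean, the called genes (at most 10 a direction by size of difference) and examples chosen after their values were seen. The members, gene lists and tests were chosen with earlier results of these data known. Of the listed genes bud-23 and exos-10 were not matched. Alternatives were pseudocounts of 0.25 and 5 CPM, TMM and median-ratio scaling, CPM without rRNA genes, other filters, edgeR 4.0.16 and DESeq2 1.42.0 on recovered reads, blocks of replicate or sample number, and leaving out libraries. The fit was tested on simulated data. No sequences were analysed here.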

Additional observations from a re-analysis of the deposited data

Results flagged for a closer look

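In 62 groups of 5 libraries (each of the 30 named snoRNAs and the summed level, in each receptor state), 6 held a library far from the others by Dixon's criterion, where chance gives about 1 in 20. OFF replicate 1 was high in 5 of them. ZK643.9 was at 1692 CPM there against 1132 to 1270 CPM in the other OFF libraries. W08G11.6 was at 830 CPM against 535 to 594 CPM, T08B6.64 at 472 CPM against 329 to 370 CPM, F22D6.16 at 97.2 CPM against 65.1 to 72.1 CPM and ZK632.18 at 82.5 CPM against 50.9 to 53.8 CPM. The sixth was the summed level of the snoRNAs in ON replicate 2, at 23576 CPM against 20740 to 21358 CPM in the other ON libraries. Both libraries are among the 3 of highest rRNA share.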

How the results depend on the processing

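The number of snoRNAs called lower fell from 20 to 13 with TMM and to 13 with median-ratio scaling, 12 of them among the 20 in each. The number called higher fell from 10 to 6 where a mean of at least 5 CPM was required, which left 106 snoRNAs in the test. Without the 3 libraries of highest rRNA share, chosen after seeing the data, 20 were called higher, including the 10, and 21 lower, including 17 of the 20. Leaving out each library in turn gave 8 to 14 called higher, 16 to 25 called lower and a log2 ratio of the sum from -0.13 to -0.01. On recovered reads edgeR called 9 higher and 14 lower and DESeq2 10 and 16. Over all tested genes, calls were 458 higher and 847 lower on CPM, 1211 and 1181 with TMM, and 628 and 683 without OFF replicate 2. With a replicate block 12 snoRNAs were called higher and 22 lower, and with a block of neighbouring sample numbers 8 and 14. Replicate numbers were taken as names of samples only. Deviations of same-numbered libraries correlated at -0.02 to 0.46. ON replicates 1, 4 and 5 correlated best with the OFF library of their own number, and ON replicates 2 and 3 with another. Whether the numbers mark pairs cannot be decided from these 5 values. Of 20 named called snoRNAs, 16 passed the threshold in every alternative that tested them. F56A12.6, among the 16, and M03D4.78, among the 20, were included through their ON libraries, so their calls are not counted as support. C07H6.10 lost it in 13, Y59E1B.14 in 11, Y46G5A.40 in 4 (both scalings, edgeR and DESeq2) and M03D4.78 in 1 (no filter, adjusted p = 0.0512). Leaving out 1 library, ON replicate 2, 3 or 5 or OFF replicate 2, 3, 4 or 5, ended the call of C07H6.10 (adjusted p 0.0596 to 0.118), as ON replicate 1 or 2 or OFF replicate 2, 3 or 4 did for Y59E1B.14 (0.0507 to 0.0828). The 655 alternative values cover all 30 named snoRNAs, and 0 reversed a called direction, which only the 20 called ones had. All alternatives use the same libraries that gave the calls. Depth limits the genes near 1 CPM.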
